A study of Mus musculus with 12 samples.

Results

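The Notch receptors, ligands and target genes were read in RNA sequencing of 12 mammary tumors from 9 mice. The group holds 10 of the 47593 genes in the file, chosen by symbol: the receptors Notch1, Notch2, Notch3 and Notch4, the ligands Jag1, Jag2, Dll1 and Dll4, and the targets Hes1 and Hey1. Every symbol had 1 row, and all 10 genes passed a filter on low values (a mean of 1 TPM or more over mice), as did 16802 genes in all. All tumors were of one condition, a mosaic model (MADM) in which the labels give the genotype as MADM RG;GR alleles on a mixed background with no treatment. By the study's methods the animals were females that carried MMTV-Cre, a Cre transgene under a mammary tumor virus promoter, with a floxed Brca1 allele and a p53 knockout allele, so that rare GFP-marked cells lost both genes among heterozygous cells. The labels give no age. Tumors 3 and 4 came from 1 mouse, tumors 10, 11 and 12 from another, and 7 mice gave 1 tumor each. Since no group was set against another, levels are described over tumors and mice, and tests were limited to relations across mice and to likeness within mice.

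Notch receptors are membrane proteins that are cut after a ligand on a neighboring cell binds them. The freed intracellular part enters the nucleus, joins the DNA-binding protein RBPJ and switches on genes such as Hes1 and Hey1. In the mammary gland the pathway is known for its part in the choice of luminal fate, and Notch4 was found as an integration site of the mouse mammary tumor virus. The same genes also work in blood vessels: Dll4 and Notch4 mark endothelial cells, and Notch3 marks the mural cells around vessels.

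Values are TPM, a transcript abundance scaled to a fixed total per library and per transcript length, so levels of different genes can be set side by side. TPM keeps no read number, and the depth is unknown. In bulk tissue, fewer cells of a type and less RNA per cell cannot be told apart. Means and SDs are over 9 mice, with tumors of one mouse averaged first.

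3 tumors stood apart by their cell type markers. In tumor 2, 2 of 8 epithelial markers were at 0 TPM and the median of the list was 0.195 TPM, while the median of 7 B lineage markers was 675 TPM; Igll1, a part of the pre-B cell receptor, was at 2261 TPM there and at most 0.0917 TPM elsewhere. The library labelled tumor 2 therefore lacked the defining markers of mammary epithelium. Tumor 8 had an epithelial median of 3.39 TPM, against 316 to 508 TPM in the 9 tumors other than 2, 8 and 9, and the highest endothelial, macrophage and fibroblast scores (a score is the mean log2(TPM + 1) of a marker list). Tumor 9 had an epithelial median of 499 TPM, but the markers on the list went different ways. Cdh1 (82.6 TPM), Krt8, Krt18, Cldn3 and Cldn7 were lower there than in every tumor but 2 and 8. Epcam and Krt19 were second highest of the 12, and Cldn4 lay above its median. The epithelial score of tumor 9, 8.45, was the lowest outside tumors 2 and 8. Tumor 9 also had the highest T lymphocyte score, with a median of 14.2 TPM for its 5 markers against at most 6.87 TPM elsewhere. Its B lineage median was 18.3 TPM, against at most 1.84 TPM in every tumor but tumor 2. The median of 3 luminal progenitor markers was 0.152, 1.64 and 6.77 TPM in tumors 2, 8 and 9 and 20.8 to 97.1 TPM in the other 9.

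The sequences upstream of Dll4 and Notch3 are shown because a high Dll4 level set tumor 9 apart and a low Notch3 level set tumors 2, 8 and 9 apart. The 250 bases before the RefSeq start (GRCm38.p6) are given 5′ to 3′ on the gene's strand, with CG dinucleotides in capitals. The Dll4 window is chr2:119325534-119325783 on the plus strand and that of Notch3 is chr17:32166891-32167140 on the minus strand.
Dll4: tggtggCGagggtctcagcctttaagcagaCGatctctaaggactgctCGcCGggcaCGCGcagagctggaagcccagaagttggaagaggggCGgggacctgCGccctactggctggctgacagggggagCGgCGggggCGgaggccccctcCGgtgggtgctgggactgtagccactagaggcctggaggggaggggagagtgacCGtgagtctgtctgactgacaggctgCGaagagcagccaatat
Notch3: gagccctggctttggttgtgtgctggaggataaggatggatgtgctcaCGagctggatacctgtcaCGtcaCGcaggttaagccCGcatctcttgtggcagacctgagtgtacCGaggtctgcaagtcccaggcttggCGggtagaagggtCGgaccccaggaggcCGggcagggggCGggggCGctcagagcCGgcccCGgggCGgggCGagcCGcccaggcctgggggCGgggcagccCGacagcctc
The Dll4 window held 14 CG dinucleotides and the Notch3 window 17, against a median of 6 and an upper quartile of 16 over 32851 promoter windows. GC content was 65.6% for Dll4 and 68.8% for Notch3, against a median of 52.4%. Windows were found for 8 of the 10 genes, 9 in all because Dll1 had a pair; Hes1 and Hey1 had none. The richest was that of Jag2, with 54 CG dinucleotides and 87.2% GC, and the poorest in CG was that of Notch4, with 4. The letters TGGGAA, the core of the RBPJ motif, were searched on both strands; they occurred in 0 of 9 member windows and in 21.6% of all windows. The longer GTGGGAA, which contains the core, occurred in 0 of 9 and in 5.42%. These counts say only that the letters are not in these windows.

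By mean log2(TPM + 1) over mice, Hes1 was highest at 5.60, followed by Notch1 at 4.86, Notch2 at 4.52, Jag1 at 4.15, Notch3 at 3.48, Dll1 at 3.42, Hey1 at 3.08, Notch4 at 2.96, Dll4 at 2.72 and Jag2 at 2.57. Neighbors in this order did not differ beyond their spread: none of the 9 paired differences exceeded 1 SD over mice. The step from Hes1 to Notch1, for example, was 0.73 ± 1.45 (SD, n = 9) on the log2 scale, and Hes1 was higher in 7 of 9 mice. Hes1 stood out instead for its steadiness, with an SD of 0.33 on the log2 scale, below the 0.57 that was the median SD of all tested genes. The other 9 genes had SDs from 0.68 for Jag2 to 1.58 for Dll1. Of all tested genes, 14.3% had a smaller SD than Hes1. Part of the contrast rested on 3 tumors. Without tumor 2 the SDs were 0.35 for Hes1, 0.44 for Notch2 and 0.48 for Notch1. Without tumors 2, 8 and 9 they were 0.27 for Hes1, 0.33 for Notch1 and 0.34 for Dll4.

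Tumor 2 held the lowest value of 7 of the 10 genes: all 4 receptors, Jag1, Dll4 and Hey1. Of all tested genes, 28.9% were lowest in tumor 2. The absence of epithelial markers moved with these low values. The endothelial, mural, macrophage and fibroblast scores were also lowest of the 12 in tumor 2, at 2.07, 2.59, 5.35 and 2.80, while its B lineage score was highest. The part of each in the low values was not tested. Leaving out tumor 2 lowered the SD of Notch1 from 1.51 to 0.48 on the log2 scale, that of Notch2 from 1.06 to 0.44 and that of Jag1 from 1.50 to 0.89, but that of Notch3 only from 1.49 to 1.36.

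**Figure D1:**
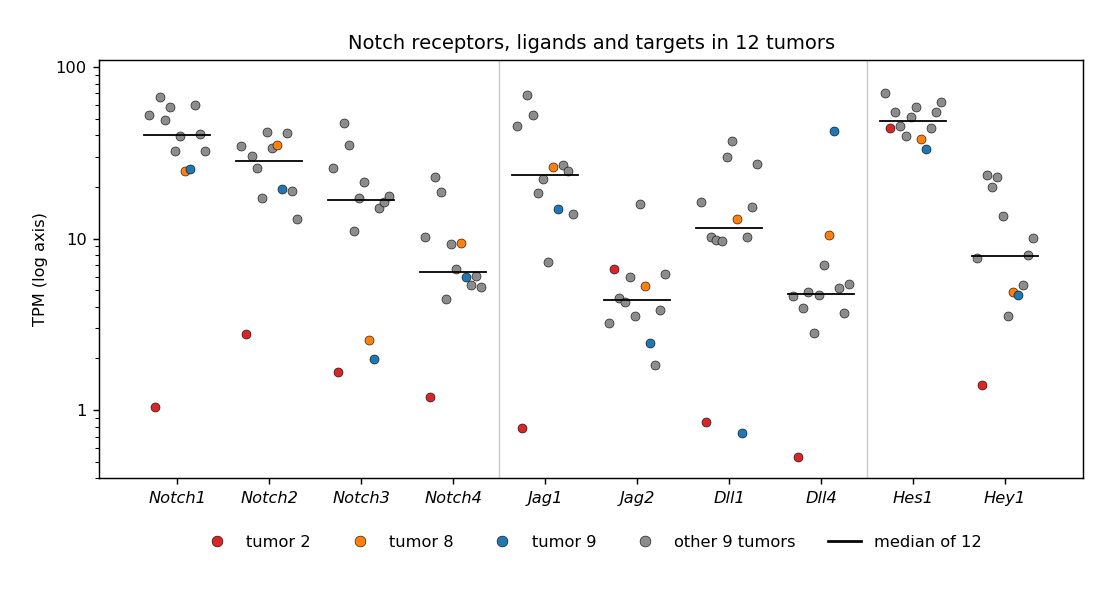
TPM on a log axis of the 4 receptors, 4 ligands and 2 targets in each of the 12 tumors, in order of tumor number within each gene; bars mark the median. Tumor 2 lies lowest for 7 of the 10 genes, tumors 8 and 9 lie near it for Notch3 and tumor 9 for Dll1, and tumor 9 lies far above all others for Dll4.

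Among the receptors, Notch1 (ENSMUSG00000026923, chr2:26457903-26516663, minus strand, GRCm38), a main receptor of luminal cells, had a mean of 37.3 ± 18.6 TPM (SD, n = 9). Its values ran from 1.04 TPM in tumor 2 through a median of 40.1 TPM to 66.5 TPM in tumor 3. The second lowest was 24.9 TPM in tumor 8, 24.0-fold higher than tumor 2. Without it the mean over 8 mice was 41.8 ± 13.6 TPM (SD).

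Notch2 (ENSMUSG00000027878, chr3:98013527-98150361, plus strand), a receptor widely made in epithelial and immune cells, had a mean of 26.4 ± 11.9 TPM. It ran from 2.77 TPM in tumor 2 through a median of 28.2 TPM to 41.9 TPM in tumor 6. The second lowest, 13.0 TPM in tumor 12, was 4.71-fold higher than tumor 2. Tumor 10, from the same mouse as tumor 12, reached 41.5 TPM, so 1 mouse covered nearly the whole range outside tumor 2.

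Notch3 (ENSMUSG00000038146, chr17:32120820-32166852, minus strand), a receptor made by mural cells among others, had a mean of 15.4 ± 13.0 TPM. It was at 1.67 TPM in tumor 2, 2.56 TPM in tumor 8 and 1.98 TPM in tumor 9. The other 9 tumors held 11.1 to 47.0 TPM, with a gap between them and the 3 low tumors. Over the 6 mice without those 3 tumors the mean was 22.1 ± 10.5 TPM and the SD on the log2 scale fell to 0.61. Tumors 2, 8 and 9 were all below the other 9 for Notch1 and Notch3 among the 10 genes, as for 5.04% of all tested genes. The median of the 3 luminal progenitor markers was low in the same 3 tumors, although Kit, one of them, was at 44.3 TPM in tumor 9, above its median of 38.9 TPM; their part was not tested. The 5 tested genes on each side of Notch3 did not share the drop in tumors 8 and 9: against the median of the 12 tumors, Notch3 was lower by 2.32 and 2.58 on the log2 scale, while its neighbors had medians of -0.18 and -0.26.

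Notch4 (ENSMUSG00000015468, chr17:34564268-34588503, plus strand), the endothelial receptor, had a mean of 8.16 ± 5.50 TPM. It ran from 1.19 TPM in tumor 2 through a median of 6.37 TPM to 22.9 TPM in tumor 3. Tumor 4, the partner of tumor 3, was second at 18.6 TPM, and the third place was taken by tumor 1 with 10.2 TPM. The 2 tumors of that mouse therefore stood above all others.

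The summed TPM of the 4 receptors was 6.66 in tumor 2 and 52.9 to 167 in the other 11. Notch1 was the most abundant receptor in 9 of 12 tumors and Notch2 in the other 3, tumors 2, 6 and 8. Notch1 made up 40.4% ± 13.3 of the receptor sum (SD, n = 9 mice), Notch2 32.7% ± 10.5, Notch3 16.7% ± 8.62 and Notch4 10.2% ± 4.25. Notch3 made up 3.57% in tumor 8 and 3.73% in tumor 9.

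The leading ligand differed more between tumors than the leading receptor. Jag1 led in 7 tumors, Dll1 in 3 (tumors 6, 7 and 12), Jag2 in tumor 2 and Dll4 in tumor 9. Over mice Jag1 made up 40.7% ± 22.9 of the ligand sum, Dll1 26.3% ± 17.9, Jag2 17.0% ± 22.8 and Dll4 15.9% ± 20.7. The last 2 rested on single tumors: over 8 mice, Jag2 was at 9.71% ± 6.89 without the mouse of tumor 2 and Dll4 at 9.16% ± 4.36 without that of tumor 9. The large share of Jag2 in tumor 2, 75.4%, stood against a ligand sum of only 8.82 TPM there; other tumors had sums of 36.9 to 86.8 TPM.

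**Figure D2:**
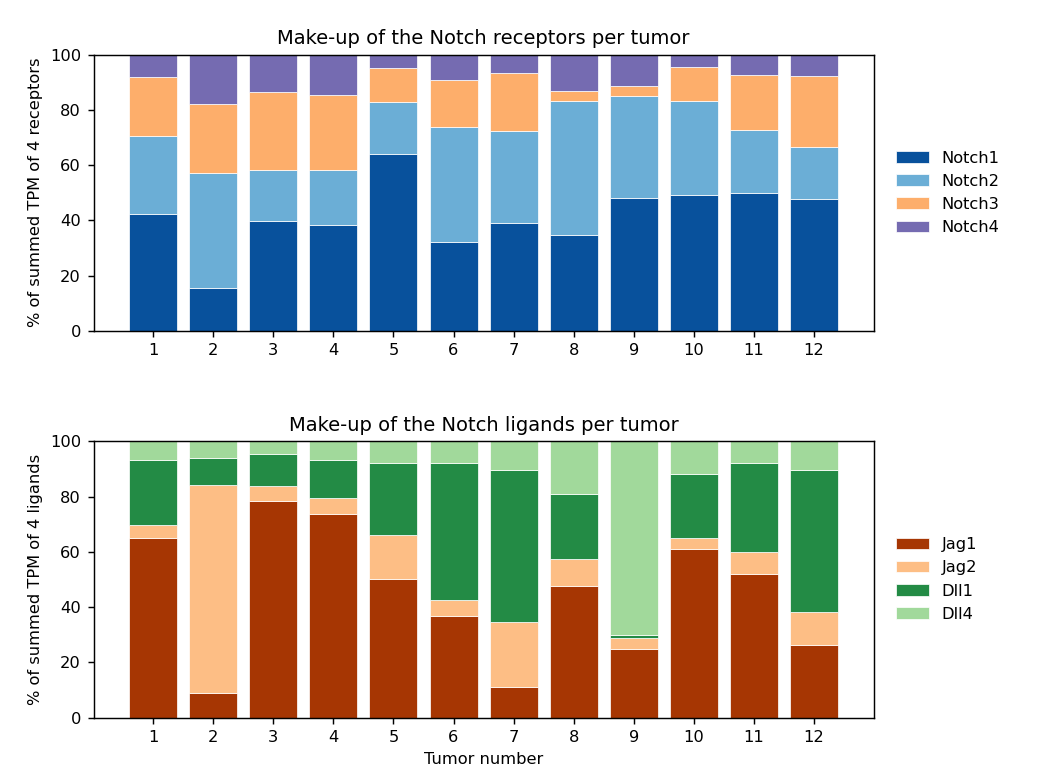
Share of each receptor (top) and each ligand (bottom) in the summed TPM of its 4 genes, in percent, for tumors 1 to 12. Notch1 has the largest receptor share in 9 tumors and Notch2 in tumors 2, 6 and 8, while the ligand with the largest share changes from Jag1 to Dll1, to Jag2 in tumor 2 and to Dll4 in tumor 9.

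Jag1 (ENSMUSG00000027276, chr2:137081456-137116644, minus strand), a ligand made by epithelial and vascular cells, had a mean of 24.1 ± 18.4 TPM. It ran from 0.784 TPM in tumor 2 through a median of 23.5 TPM to 68.2 TPM in tumor 3. Tumor 4 was second at 52.3 TPM and tumor 7 second lowest at 7.33 TPM. As with Notch4, the mouse of tumors 3 and 4 held the highest values.

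Jag2 (ENSMUSG00000002799, chr12:112907819-112929776, minus strand), the second ligand of the Jagged type, had a mean of 5.71 ± 4.08 TPM and went its own way. Its lowest value was 1.84 TPM in tumor 10, its median 4.37 TPM and its highest 16.0 TPM in tumor 7. Tumor 2, lowest for most of the other genes, was second highest for Jag2 at 6.65 TPM. Tumor 7 was 2.40-fold above that value.

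Dll1 (ENSMUSG00000014773, chr17:15367354-15376872, minus strand), a Delta-type ligand, had a mean of 15.0 ± 12.1 TPM. It was at 0.732 TPM in tumor 9 and 0.857 TPM in tumor 2, while the other 10 tumors started at 9.63 TPM. Its highest values were 36.8 TPM in tumor 7 and 30.0 TPM in tumor 6. The 10 neighboring genes of Dll1 had a median of -0.14 in tumor 9 against the median of the tumors on the log2 scale, while Dll1 was at -2.85.

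Dll4 (ENSMUSG00000027314, chr2:119325784-119335962, plus strand), the Delta-type ligand of sprouting endothelium, had a mean of 9.07 ± 12.8 TPM that rested on 1 tumor. Tumor 9 held 42.3 TPM, 4.02-fold above the next, tumor 8, at 10.5 TPM. The median was 4.76 TPM and the lowest value 0.533 TPM in tumor 2. The mean was 4.92 TPM over the 8 mice without tumor 9 and 4.71 ± 1.33 TPM over the 6 without tumors 2, 8 and 9. Among all tested genes, 14.2% were highest in tumor 9, and Dll4 was the only one of the 10 that was. The median of the 10 endothelial markers in tumor 9, 7.07 TPM, lay inside the 4.83 to 13.0 TPM of the 9 tumors other than 2, 8 and 9; of the markers Kdr was second highest of the 12 there, at 8.26 TPM, and Emcn and Esam second lowest. The T lymphocyte score and 4 of its 5 markers were highest in tumor 9 (Cd4 was highest in tumor 8), the B lineage median of 18.3 TPM was above that of every tumor but tumor 2, and Myh11, a smooth muscle myosin on the myoepithelial list, was at 250.4 TPM against at most 3.44 TPM elsewhere. The other 6 myoepithelial markers did not move together in tumor 9: Acta2 was lowest of the 12 at 22.2 TPM, while Krt5 was at 2.54 TPM beside a median of 2.31 TPM. The part of these in the Dll4 value was not tested.

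The Dll4 locus showed a second transcript with the same pattern. Gm14207 (ENSMUSG00000074912, chr2:119321187-119326194, minus strand), annotated as a processed transcript, covers the whole Dll4 window printed above and overlaps the first 411 bases of the Dll4 gene on the opposite strand. Its level was 26.5 TPM in tumor 9 and at most 1.37 TPM elsewhere, with a median of 0.386 TPM. Libraries were made with a stranded kit, but whether the quantification used strand is not given in the sources used here, so reads of the 2 overlapping genes may not have been told apart. Of the 10 genes near Dll4, 7 were above their tumor median in tumor 9, with a median difference of 0.72 on the log2 scale, and Gm14207 alone differed by 2 or more. Annotated genes that overlap the other members in the file reached at most 1.88 TPM.

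Of the targets, Hes1 (ENSMUSG00000022528, chr16:30064384-30067796, plus strand), a repressor switched on by Notch in many tissues, had a mean of 48.6 ± 11.4 TPM. It ran from 33.3 TPM in tumor 9 through a median of 48.1 TPM to 70.1 TPM in tumor 1. Tumor 2, in which all 4 receptors were lowest, held 44.0 TPM of Hes1, in the middle of the other tumors.

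Hey1 (ENSMUSG00000040289, chr3:8663359-8667256, minus strand), a related repressor, had a mean of 9.80 ± 7.88 TPM and a 16.6-fold range. It was at 1.41 TPM in tumor 2, had a median of 7.86 TPM and reached 23.4 TPM in tumor 3. Tumor 5 followed with 23.0 TPM and tumor 4 with 20.0 TPM, and no other tumor exceeded 13.5 TPM. The 2 targets therefore did not share an order of tumors.

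Whether the vascular members followed the amount of vessel RNA was asked with 5 relations across the 9 mice, each between a gene and a marker score on the log2 scale. The endothelial score used 10 markers and the mural score 7. Of all tested genes, 0% were called for either score at an adjusted p of 0.05 (Benjamini-Hochberg over 16802 genes), and 11.7% and 13% had an unadjusted exact p under 0.05 for the endothelial and mural score. The tested genes include the markers that make up the scores, and these were not called either. The adjusted test therefore cannot decide whether a member followed vessel RNA. None of the 5 relations was called, and none had an unadjusted p under 0.05 over all 9 mice with a pseudocount of 1. Adjusted p-values of Spearman's rho were 0.83 or higher for all 5.

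Dll4 and the endothelial score had r = 0.46 (exact permutation p = 0.20, adjusted p = 0.57) and Spearman rho = 0.67 (exact permutation p = 0.059). Tumor 9 lay off the line of the others. Without its mouse r was 0.93 over 8 mice (exact permutation p = 0.0020, adjusted p = 0.18). Since tumors 2 and 8 spanned the score, their mice were also left out: without them and with tumor 9 kept, r was -0.11, and without the mice of tumors 2 and 9, r was 0.90 over 7 mice (exact permutation p = 0.0087, adjusted p = 0.30). An r of this size appeared only in fits that left out tumor 9, and none of these fits passed the adjustment. The pairs of mice left out were chosen after the values were seen.

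Notch4 and the endothelial score had r = 0.59 (exact permutation p = 0.089, adjusted p = 0.47) and rho = 0.37 (exact permutation p = 0.34). Without the mice of tumors 2 and 8, the farthest from the median score, r was 0.17. It was 0.20 without the mouse of tumor 2 alone and 0.67 without that of tumor 8 alone, so the relation rested on tumor 2. Notch1 had r = 0.49 (exact permutation p = 0.21, adjusted p = 0.58) but rho = -0.15 (exact permutation p = 0.71), and r = -0.22 without those 2 mice. Hey1 had r = 0.17 (exact permutation p = 0.68, adjusted p = 0.89), rho = -0.033 (exact permutation p = 0.95) and r = -0.23 without them. The sign for Notch1 and Hey1 turned on tumor 2, without which r was -0.55 and -0.39.

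Notch3 and the mural score had r = 0.66 (exact permutation p = 0.058, adjusted p = 0.40) and rho = 0.60 (exact permutation p = 0.097). Without the mice of tumors 2 and 9, the farthest from the median score, r was 0.075. It was 0.68 without those of tumors 2 and 8, and 0.80 without that of tumor 8 alone (exact permutation p = 0.022, adjusted p = 0.35). With a pseudocount of 0.1, r was 0.72 (exact permutation p = 0.030, adjusted p = 0.27). The labels give no batch, so no relation was recomputed within one.

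**Figure D3:**
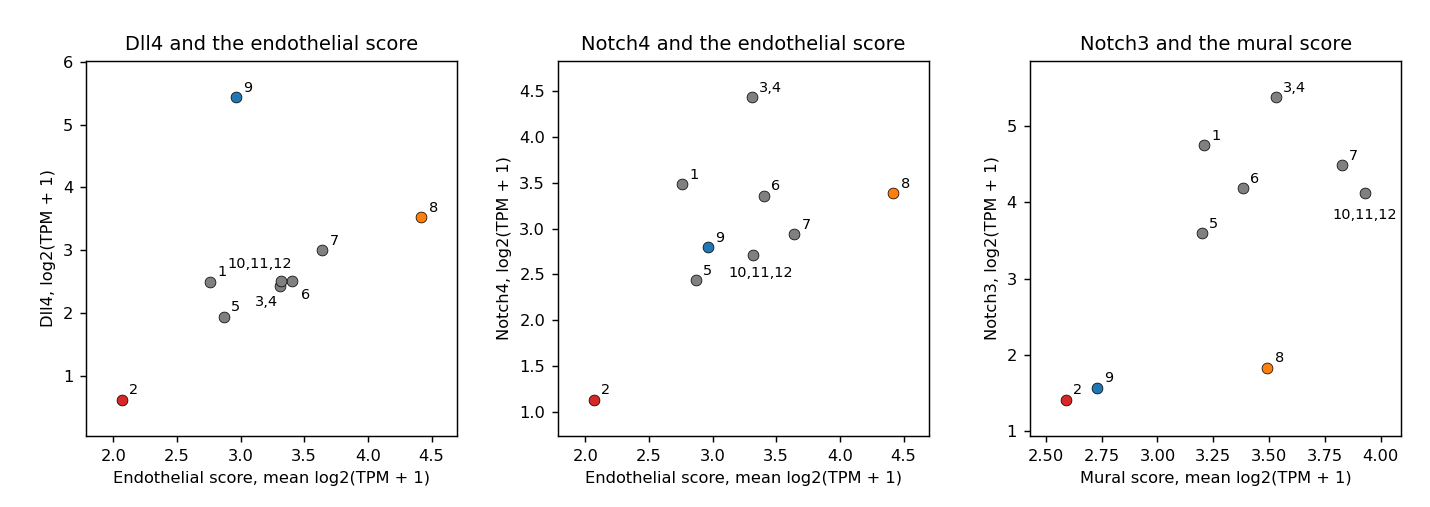
Each point is a mouse, named by its tumor numbers: Dll4 and Notch4 against the endothelial score and Notch3 against the mural score, all as log2(TPM + 1). Tumor 9 lies far above the other mice for Dll4, and tumors 2, 8 and 9 lie lowest for Notch3.

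Likeness between tumors of one mouse was measured for each gene as the mean absolute difference in log2(TPM + 1) over the 4 same-mouse pairs, set against the 62 other pairs. Same-mouse minus other pairs had a median of -0.85 over the 10 genes, beside -0.29 over all tested genes. These medians cannot show that the members were unusually alike, because the difference is not scaled to a gene's spread. All members but Hes1 had log2 SDs of 0.68 or more, above the median of 0.57 over tested genes. Tumors 2, 8 and 9, each the only tumor of its mouse, entered only the other pairs. After adjustment over all tested genes 0 of 10 were called (exact one-sided permutation of the animal labels over 7920 assignments), as were 0% of all tested genes. At an unadjusted p under 0.05 there were 3 of 10, a share near the 26.3% of all tested genes.

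Those 3 were Notch3, Notch4 and Hey1. Notch3 differed by 0.21 within a mouse and 1.66 between mice (exact permutation p = 0.0037, adjusted p = 0.14). Notch4 differed by 0.16 and 1.05 (exact permutation p = 0.0073, adjusted p = 0.14), and Hey1 by 0.45 and 1.27 (exact permutation p = 0.029, adjusted p = 0.17). Tumors 10, 11 and 12 held 15.1, 16.3 and 17.6 TPM of Notch3, and 5.34, 6.07 and 5.23 TPM of Notch4. Notch2 varied more in the same 3 tumors, with 41.5, 18.9 and 13.0 TPM. Its difference was 0.85 within a mouse and 1.02 between mice.

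**Figure D4:**
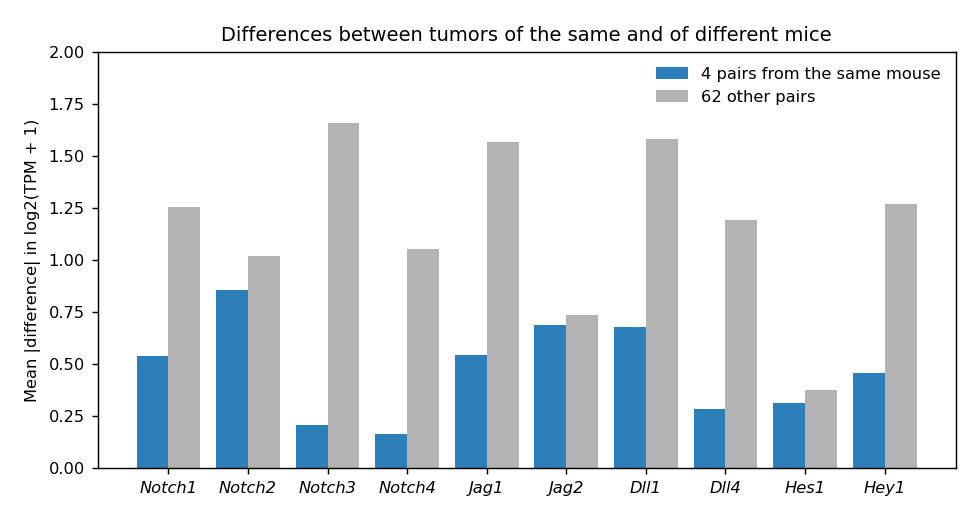
Mean absolute difference in log2(TPM + 1) between tumors of the same mouse (4 pairs) and of different mice (62 pairs) for each gene. The gap between the bars is widest for Notch3, at 0.21 against 1.66, and smallest for Jag2, at 0.69 against 0.74.

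The mouse of tumors 3 and 4 was high in several of the genes. Tumor 3 held the highest value of 5 of the 10 (Notch1, Notch3, Notch4, Jag1 and Hey1), beside 11.9% of all tested genes. Both tumors lay above the other 10 for Notch3, Notch4 and Jag1, 3 of the 10, beside 7.78% of all tested genes. Genes with this pattern were most frequent on chromosome 12, where 35.2% of 588 tested genes showed it, beside 15.2% on chromosome 17, which holds Notch3 and Notch4, and 8.72% on chromosome 2, which holds Jag1. Jag2 lies on chromosome 12 but had 4.50 and 4.24 TPM in tumors 3 and 4, inside the 1.84 to 16.0 TPM of the others. No copy number was measured in these files.

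Other genes of the pathway were read from lists of 46 genes, of which 38 were tested. Of these, 17 were lowest in tumor 2, beside 28.9% of all tested genes, and 5 were highest in tumor 9, beside 14.2%, a share near the background. None of the 38 was called for the endothelial score, beside 0% of all tested genes; 5 had an unadjusted p under 0.05, 4 with positive and 1 with negative r, a share near the 11.7% of all tested genes. The strongest was Aph1c, a subunit of the γ-secretase that cuts Notch, with r = 0.91 (exact permutation p = 0.0012, adjusted p = 0.28, n = 9).

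Of the 10 proteases and protease subunits that activate the receptors, 8 were lowest in tumor 2, where Aph1b and Aph1c were at 0.357 and 0.312 TPM. Furin, which cuts the receptor on its way to the surface, ran from 14.1 TPM in tumor 2 to 130 TPM in tumor 3. Psenen went the other way, with 153 TPM in tumor 2 and its highest value, 162 TPM, in tumor 9. Of the 5 genes that add or extend sugars on Notch, 3 were lowest in tumor 2. Poglut1, an O-glucosyltransferase, held 280 TPM in tumor 9 and at most 54.9 TPM elsewhere. Mfng, one of the Fringe enzymes that tune ligand choice, was also highest in tumor 9, at 19.3 TPM.

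Of the 8 nuclear genes, 4 were lowest in tumor 2, among them Rbpj, the DNA-binding partner, which ran from 26.9 TPM there to 95.2 TPM in tumor 12. Of the 4 ubiquitin ligases that act on ligands, 1 was lowest in tumor 2, Neurl1a, at 0.263 TPM against 8.39 TPM in tumor 1. Of the 8 inhibitors and regulators, only Numbl was lowest in tumor 2. Numb, which restrains Notch, was at 79.8 and 63.5 TPM in tumors 3 and 4 and at most 39.1 TPM elsewhere. Tumors 3 and 4 were both above the other 10 for 6 of the 38 tested pathway genes, beside 7.78% of all tested genes. These included Numb and Snw1 on chromosome 12, Neurl1b on chromosome 17, Numbl on chromosome 7 and Heyl on chromosome 4. Dtx3 was at 173 TPM in tumor 9 and at most 81.7 TPM elsewhere.

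Of 4 other ligands only Dlk1, a non-canonical ligand, was tested; it held 157 TPM in tumor 2 and at most 0.692 TPM elsewhere. Of 7 other targets, Nrarp and Heyl were tested, and Hes2, Hes3, Hes5, Hes7 and Hey2 stayed at or under 2.60 TPM in every tumor. Nrarp, a target that feeds back on the receptor complex, was at 6.17, 4.20 and 6.78 TPM in tumors 2, 8 and 9, and at 7.24 to 18.8 TPM in the other 9. Nrarp and Mib1, 2 of the 38 tested pathway genes, had tumors 2, 8 and 9 below the rest, a share near the 5.04% of all tested genes. Heyl ran from 0.893 TPM in tumor 8 to 5.15 TPM in tumor 4.

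The tested genes whose log2 levels were most like each member over the 9 mice were ranked by Pearson r as a description; the points share library and tumor make-up. For Notch1 they were Baiap2l1 (r = 0.996), Mllt4 (r = 0.99) and Pak1 (r = 0.99), each under 1 TPM in tumor 2. For Notch2 they were Grina, Zbtb7b and Asah1, for Notch3 Slc26a9, Dsg3 and Txndc9, and for Notch4 Inf2, Dync1h1 and Uba1, the first and the second of these on chromosome 12. For Jag1 they were Gm38079, Lrrc8e and Elovl1, for Jag2 Rbm39, 4921531C22Rik and Dnajc21, and for Dll1 Ptpn12, Nln and Tmem231. For Dll4 they were Rasgrp1 (r = 0.99), Arl11 (r = 0.98) and Plscr1 (r = 0.97), all highest in tumor 9. For Hes1 they were Gm38336, Farsb and Spata5l1, and for Hey1 Abcf1, C330022C24Rik and Coa7. These rankings changed without tumor 2: over the other 8 mice, none of the 3 genes remained for Notch1, Notch2 and Hey1, 1 remained for Notch3, Notch4, Jag1, Dll1 and Dll4, and 2 remained for Jag2 and Hes1. Without tumor 2 the genes most like Notch1 were Slc1a1, Sqle and B3galt5. Over 9 mice, no member was among the 3 genes most like another member.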

How the data were processed

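RNA from about 50 mg of each of 12 MADM mammary tumors was sequenced as poly(A) libraries made with a stranded kit. The authors trimmed adapters, aligned paired-end reads to the GRCm38 transcriptome (Ensembl release 84) with HISAT2 and deposited TPM values obtained with StringTie (version 2.1.6 in the submitters' processing notes). How transcripts were summed to genes is not given in the sources used here. TPM summed to 999770 to 999909 per tumor, so no read depth or counting error can be given and count models do not apply.

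Levels were taken as log2(TPM + 1) and averaged over tumors of one mouse, which left 9 values. Genes with a mean of 1 TPM or more were tested. Pearson and Spearman correlations were tested two-sided by exact permutation of the pairings (362880 orders), and likeness within mice one-sided by exact permutation of the animal labels, where 0.00013 is the smallest p possible. Benjamini-Hochberg adjustment ran over all tested genes at a threshold of 0.05. Tumors are separate samples by their labels, and p-values measure the spread between these mice. Positions were taken from GENCODE release M21 (GRCm38), which held 47137 of the 47593 gene identifiers, and promoter windows from RefSeq. The scripts were tested on simulated data and ran in Python 3.11.15 with numpy 2.4.6, pandas 2.3.3 and scipy 1.17.1. Named genes were the 10 members, the pathway and marker lists, the 3 genes most like each member and the 5 tested neighbors on each side of a member that deviated by 2 or more on the log2 scale. The members, lists and tests were chosen with earlier results of these data known. The alternatives were a pseudocount of 0.1, TPM rescaled without mitochondrial genes, a filter at 5 TPM or none, the median of a marker list, each tumor as a unit, rank correlation, and leaving out each mouse or tumor.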

Additional observations from a re-analysis of the deposited data

Results flagged for a closer look

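3 of the 10 genes had a mouse that was separated from the remaining 8 mice by a gap past the critical Dixon ratio; by chance this happens in about 1 in 20 groups. Of all tested genes, 18.7% had such a mouse on either side, and 5.65% had the mouse of tumor 2 apart as the lowest. Notch1 was lowest in the mouse of tumor 2, at 1.03 on the log2(TPM + 1) scale, with the nearest mouse at 4.69. Notch2 was lowest in the same mouse, at 1.91, with the nearest at 4.19. Jag2 was highest in the mouse of tumor 7, at 4.09, with the nearest at 2.93. The epithelial markers were at or near 0 in tumor 2, and the endothelial, mural, macrophage and fibroblast scores were also lowest there. The part of each in the 2 low values of tumor 2 was not tested.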

How the results depend on the processing

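No relation with a marker score, no pathway gene and no likeness within mice was called in any setting. Mean levels kept within 1 SD of the values given under every alternative run. Leaving out 1 of 9 mice cannot move a mean by 1 SD, so for those settings this says nothing about stability. The mean of Dll4 fell from 9.07 to 4.92 TPM without the mouse of tumor 9. The sign of r changed in these cases. With rank correlation, Notch1 was at -0.15 and Hey1 at -0.033. Without the mice of tumors 2 and 8, a setting chosen after seeing the data, Notch1 was at -0.22, Dll4 at -0.11 and Hey1 at -0.23. Leaving out each mouse in turn gave -0.55 to 0.74 for Notch1 and -0.39 to 0.42 for Hey1, each negative only without tumor 2, and 0.11 to 0.93 for Dll4, 0.20 to 0.70 for Notch4 and 0.51 to 0.80 for Notch3. The number of members alike within mice at an unadjusted p under 0.05 ran from 2 to 5 when each tumor was left out. Leaving out the mice of tumors 2 and 9, or 8 and 9, for Dll4, tumors 2, 8 and 9 for the likeness within mice, and the mouse of tumor 2, 8 or 9 for the shares, was also chosen after seeing the data. No paired analysis was possible because the design holds a single condition and no second group to pair with. The values carry no read numbers, so precision rests on the spread between 9 mice, and only 2 mice gave more than 1 tumor.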
